A study of Mus musculus with 4 samples.

Results

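The genes described here are the potassium channel genes of the mouse, taken as the protein-coding genes of GENCODE release M21 whose symbol starts with *Kcn*. They numbered 94 of 21938 coding genes on the assembled chromosomes. Their chromatin was examined in mouse hearts of embryonic day 9.5 (E9.5) by ATAC-seq, in which a transposase cuts and tags the DNA that nucleosomes leave free. Hearts were wild type (WT) or homozygous null for *Smyd1*, which encodes a muscle methyltransferase that acts on histones (*Smyd1-KO*). There were 4 libraries, 2 of each genotype, and for every library 40000 viable cells were taken from a pool of 4 hearts. The null allele is carried by every cell of the embryo, whole hearts with all their cell types were used, and no agent was given to either group.

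The comparison asks where chromatin differs in accessibility once SMYD1 is lost. The deposited lists hold 25745 peaks that were at least 2-fold higher in *Smyd1-KO* hearts, called gained peaks below, and 106 that were at least 2-fold higher in WT hearts, called lost peaks. All peaks have the same narrow width, so their scores compare per length. Each carries a score, the authors' tag signal (tags are aligned reads) after the libraries of a genotype were combined. Scores of gained peaks come in steps of 0.5, so they are not whole counts of reads, and the scaling behind them is not given in the sources used here. Values in tags of gained peaks below are on this scale. How the libraries were scaled for the 2-fold rule is likewise not given, and it could decide which peaks count as gained or lost, and so also the 25745 against 106. Scores of the gained list ran from 24.5 to 18591 tags with a median of 180.5. The level of a gained peak in WT hearts is not used here, so no fold change is given for any single peak. Because libraries were combined, no value below has a replicate error, the depth reached by each library is not known from the lists (the study planned one depth for all), and no test between genotypes was possible. In whole hearts, a change of chromatin within a cell type and a change in the share of that cell type cannot be told apart.

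Potassium channels let potassium leave or enter a cell and so set its resting potential and end its action potential. In the heart, voltage-gated channels carry the outward currents of repolarisation, inward rectifiers hold the resting potential, two-pore channels carry background currents, and small-conductance channels open with intracellular calcium. Accessory subunits of the *Kcne*, *Kcnip*, *Kcnab* and *Kcnmb* groups bind the pore-forming alpha subunits and alter their gating or their delivery to the membrane.

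The sequences under the gained peaks that the description of the cardiac genes turns on are given first. They were read from GRCm38, whose sequence is that of mm10, on the strand of the gene and from 5′ to 3′. Positions count from 1. Capitals mark every match, on either strand, to GGGCGG (the GC box of SP and KLF factors), AGGGGGC (a part of the CTCF site), GGAATG (TEAD factors) or another of the 7 strings searched. Where bases of a peak lay in an annotated UTR, the UTR-free stretch alone is shown. The first 3 are from *Kcnh2* and include its strongest peak (chr5:24352558-24352706, minus strand), the peak next to its first transcription start site (TSS; chr5:24351712-24351860) and the peak at an internal TSS (shown for chr5:24329592-24329727).

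Kcnh2, 894 tags: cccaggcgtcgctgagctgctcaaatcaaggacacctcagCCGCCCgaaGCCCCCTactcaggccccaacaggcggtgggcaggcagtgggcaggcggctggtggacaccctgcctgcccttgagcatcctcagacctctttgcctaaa
Kcnh2, 559 tags: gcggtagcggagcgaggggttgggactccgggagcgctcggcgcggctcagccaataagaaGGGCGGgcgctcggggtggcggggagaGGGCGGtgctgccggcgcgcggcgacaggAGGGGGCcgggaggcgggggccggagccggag
Kcnh2, 372 tags: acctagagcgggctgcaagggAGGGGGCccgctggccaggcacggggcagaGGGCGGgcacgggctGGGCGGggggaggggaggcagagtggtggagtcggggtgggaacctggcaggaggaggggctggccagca

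Next are the peaks just upstream of the TSS of *Kcnj2* (chr11:111066002-111066150, plus strand) and *Kcnn3* (chr3:89520002-89520150, plus strand), and the strongest peak of *Kcnn1* (chr8:70865625-70865773, minus strand). The weak peaks at *Kcnd2* (chr6:21215149-21215297, plus strand) and *Kcne2* (chr16:92295459-92295607, plus strand) are shown beside them, since these genes were counted on a peak below the median score of the whole list.

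Kcnj2, 560 tags: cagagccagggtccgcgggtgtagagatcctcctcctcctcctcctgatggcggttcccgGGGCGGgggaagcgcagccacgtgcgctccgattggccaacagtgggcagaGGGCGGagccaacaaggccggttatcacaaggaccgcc
Kcnn3, 365.5 tags: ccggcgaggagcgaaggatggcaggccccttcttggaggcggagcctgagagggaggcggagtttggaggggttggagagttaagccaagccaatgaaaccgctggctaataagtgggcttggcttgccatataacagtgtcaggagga
Kcnn1, 753.5 tags: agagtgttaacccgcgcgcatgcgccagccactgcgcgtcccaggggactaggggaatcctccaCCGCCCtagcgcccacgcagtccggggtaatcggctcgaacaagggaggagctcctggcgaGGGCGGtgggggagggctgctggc
Kcnd2, 103 tags: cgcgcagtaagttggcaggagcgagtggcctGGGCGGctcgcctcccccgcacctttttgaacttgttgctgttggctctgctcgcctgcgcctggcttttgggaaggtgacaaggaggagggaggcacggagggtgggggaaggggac
Kcne2, 63.5 tags: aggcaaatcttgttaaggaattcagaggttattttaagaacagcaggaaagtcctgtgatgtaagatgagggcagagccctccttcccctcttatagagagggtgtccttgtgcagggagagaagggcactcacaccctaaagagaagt

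The last 2 lie inside *Kcnq1*, which had no gained peak close to a TSS. One is its nearest gained peak (chr7:143112466-143112614, plus strand) and the other covers the TSS of the antisense transcript Kcnq1ot1 (chr7:143296536-143296684, plus strand).

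Kcnq1, 143.5 tags: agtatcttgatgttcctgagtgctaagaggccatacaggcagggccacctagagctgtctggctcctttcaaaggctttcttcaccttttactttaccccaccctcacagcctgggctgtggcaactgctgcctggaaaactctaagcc
Kcnq1, 346.5 tags: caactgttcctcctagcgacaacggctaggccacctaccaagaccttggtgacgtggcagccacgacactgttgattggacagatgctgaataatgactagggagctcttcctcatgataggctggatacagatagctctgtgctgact

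A gene was counted with a gained peak when a peak came, by its nearer edge, within 3 kb of a TSS of that gene. By this rule 35 of the 94 potassium channel genes had a gained peak, or 37.2% (95% Clopper-Pearson interval 27.5 to 47.8%), and 59 had none. The share among all coding genes was 51.2%. The share in the family was below that of coding genes as a whole, which lay above the interval of the family. The interval covers counting error only, and genes of a family are not independent samples.

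The share of coding genes with a gained peak rose with the GC content around the TSS, so other coding genes of like GC were taken as the measure. GC was taken 500 bp to either side of each TSS and averaged over the TSSs of a gene. Potassium channel genes had a median TSS GC of 57.7%, above the median of 53% over all coding genes. For each member, all other coding genes with a TSS GC within 1 percentage point were used, between 57 and 2426 genes. On average 63.8% of these had a gained peak, which puts the family below them (members minus other genes, -26.5 percentage points). Set against genes of like GC and like ratio of observed to expected CpG dinucleotides (as few as 5 genes for 1 member), the share was 58.9%, and against genes of like CpG ratio alone it was 56.9%. Both of these were chosen after seeing the data. The family's share was lower than each. Expression of these genes in the E9.5 heart was not taken into account in any of them.

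Coding genes were then split by TSS GC into 5 bins of equal size. Potassium channel genes were below other coding genes in the upper 4 bins and above them in the lowest. In the lowest bin, 1 of 6 members had a gained peak, against 9.87% of other coding genes, and in the next 4 of 12 did, against 43.9%. In the middle bin the count was 4 of 15 against 59%. It was 7 of 24 against 68.8% in the bin above, and 19 of 37 against 75.2% in the highest. The interval of the members excluded the share of other coding genes in the upper 3 bins and held it in the lower ones, where members were few. At the ends of the range, *Kcnj13*, *Kcnj16* and *Kcne4* had the lowest TSS GC (38.4, 41 and 43.3%) and no gained peak. The highest belonged to *Kcng3* (74%), with 1 peak of 169 tags, to *Kcnc4* (71.6%), with none, and to *Kcna3* (70.6%), with 1 peak of 323 tags.

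**Figure D1:**
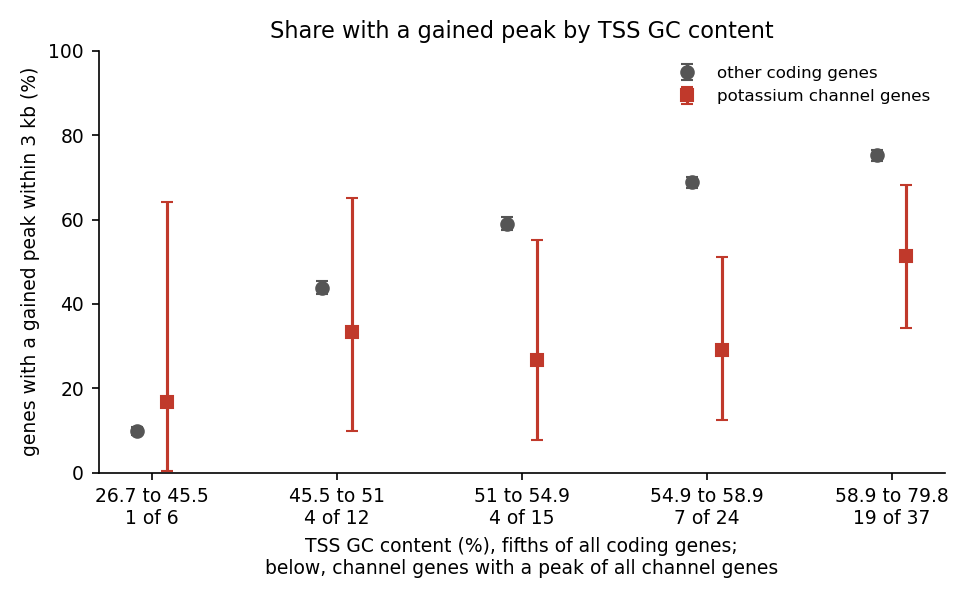
Percent of genes with a gained peak within 3 kb of a TSS (vertical axis) in 5 bins of TSS GC content (horizontal axis), for other coding genes (circles) and potassium channel genes (squares), with 95% Clopper-Pearson intervals. The members sit between 16.7 and 51.4%, and other coding genes climb from 9.87 to 75.2%.

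Distance and score thresholds changed how many members were counted. Within 1 kb of a TSS, 33 members had a gained peak (35.1%), against 48.1% of all coding genes, and the members not counted there were *Kcng1* and *Kcnip2*. Within 10 kb, 51 members did (54.3%, interval 43.7 to 64.6%), against 59.6%. Of the 16 genes added at 10 kb, 5 were on the list of cardiac genes described below, namely *Kcnq1*, *Kcnj4*, *Kcnj5*, *Kcnj12* and *Kcnk2*. When peaks had to reach the median score of the whole gained list, 23 members were left (24.5%), against 45.4% of all coding genes. The members lost by that threshold included *Kcnd2*, *Kcnd3*, *Kcnip2* and *Kcne2*.

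No potassium channel gene had a lost peak within 3 kb of a TSS. This count of 0 of 94 allows a share of up to 3.85%, and the share among all coding genes was 0.0228% (5 genes), so a difference would not be detectable with 94 genes. The nearest lost peak was 343139 bp from a TSS of *Kcng2*, with a score of 31.6 tags, and no lost peak lay inside a member. Scores of the lost list come in steps as small as 0.3, so they may not share the scale of the gained list.

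The 35 members had 48 different gained peaks, of which 20 covered a TSS, 22 lay upstream of the nearest TSS of the gene and 6 lay downstream of it. The share that covered a TSS was 41.7%, against 44.2% over the 14389 pairs of a gained peak and a coding gene within 3 kb. Of the 48 peaks, 41 lay within 1 kb of the TSS. By annotation, 21 overlapped a 5′ UTR, 14 were outside the gene, 8 were in an intron, 2 overlapped a coding exon, 2 an exon of a noncoding transcript and 1 a 3′ UTR. A single peak was found at 26 members, 2 at 7 members, and 4 at each of *Kcnh2* and *Kcnn2*. Apart from the share that covered a TSS, these counts were not set beside those of all coding genes. For 3 peaks, another coding gene also had a TSS within 3 kb. One of these, with 639 tags, was the strongest peak of *Kcnab3* but lay 17 bp from a TSS of *Cntrob*, and the peak that covered the TSS of *Kcnab3* itself had 277.5 tags.

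Gained peaks at potassium channel genes scored lower than those at coding genes as a whole. The strongest score within 3 kb had a median of 323 tags over the 35 members (quartiles 163.5 and 495.5), against 460.5 tags over all coding genes with a gained peak (quartiles 292 and 693). It lay above the median of all coding genes in 10 members and above their upper quartile in 3, namely *Kcnh2*, *Kcnn1* and *Kcnab2*. Among coding genes with a gained peak and a like TSS GC, the strongest score of a member fell at a median percentile of 21.2, and 26 of the 35 members fell below percentile 50.

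The 10 highest scores ran from *Kcnh2* (894 tags) to *Kcnq5* (485 tags), a voltage-gated channel of the neuronal M current. *Kcnn1*, a small-conductance calcium-activated channel, had 753.5 tags, and *Kcnab2*, a cytoplasmic beta subunit of Shaker-type channels, had 694.5 tags. The related beta subunit gene *Kcnab3* followed with the 639 tags of the peak near *Cntrob*. *Kcnip3*, whose product is a calcium sensor that binds channels of the *Kcnd* group, had 602 tags. The sodium-activated channel gene *Kcnt2* had 582 tags at a TSS GC of 45.3%. *Kcnj2* had 560 tags, the modulatory subunit gene *Kcng2* 525 tags and the calcium-activated channel gene *Kcnn2* 506 tags. At the other end, the lowest strongest score was 41.5 tags at *Kcnc2*, a voltage-gated channel gene of fast-firing neurons.

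**Figure D2:**
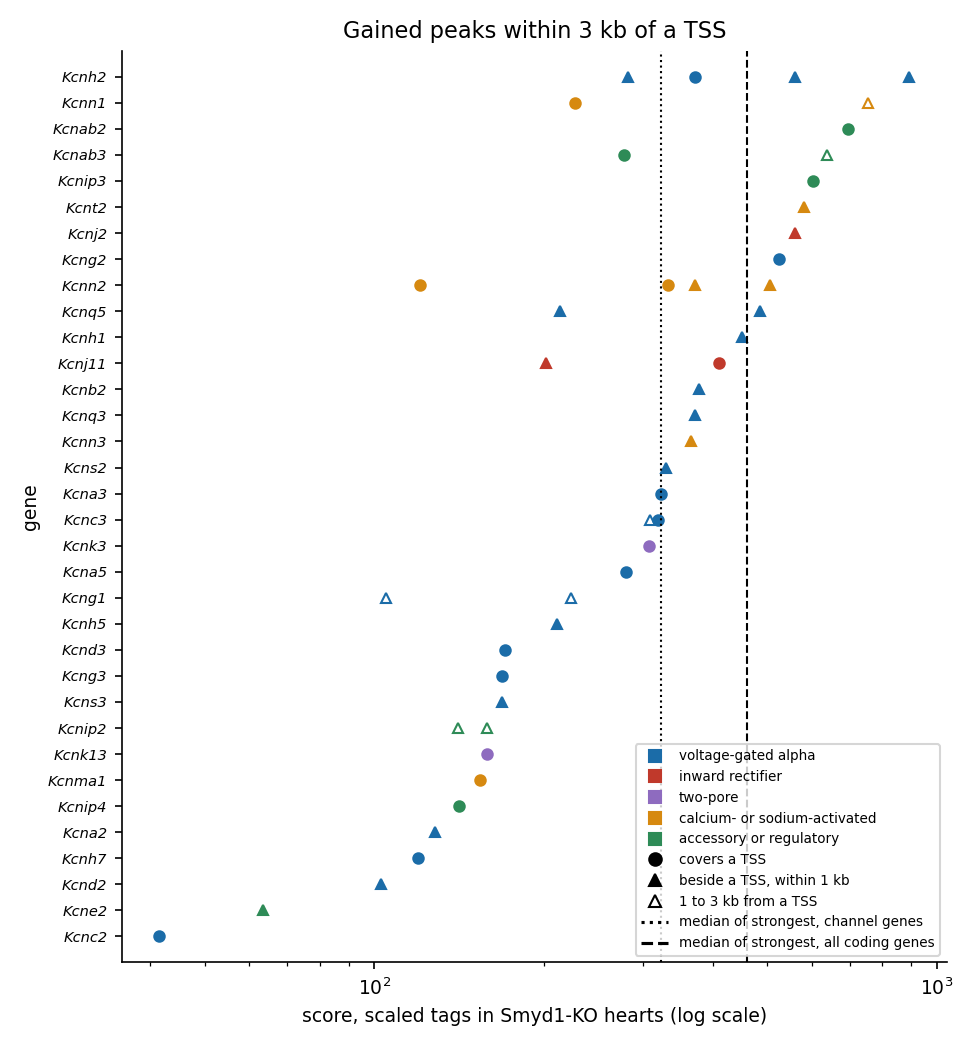
Scores in scaled tags of combined libraries (horizontal axis, log scale) of all gained peaks inside the 3 kb window for the 35 potassium channel genes that had one (vertical axis), coloured by class, with 1 gene not drawn. Strongest scores run from 41.5 to 894 tags, and 10 genes lie to the right of the dashed line at 460.5 tags, the median of all coding genes with a gained peak.

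The share with a gained peak varied between the classes of channel. Of the 40 voltage-gated alpha subunits 20 did (50%, interval 33.8 to 66.2%), and of the 8 calcium- or sodium-activated channels 5 did (62.5%, 24.5 to 91.5%). By gene symbol, the class called calcium- or sodium-activated also takes in related channels. Accessory subunits followed with 6 of 17 (35.3%, 14.2 to 61.7%). Among inward rectifiers the count was 2 of 15 (13.3%, 1.66 to 40.5%), namely *Kcnj2* and *Kcnj11*, and among two-pore channels it was 2 of 14 (14.3%, 1.78 to 42.8%), namely *Kcnk3* and *Kcnk13*. Other coding genes of like GC had a gained peak in 69.2% for the voltage-gated alpha subunits, 58.2% for the calcium- or sodium-activated channels, 55.3% for the accessory subunits, 58.5% for the inward rectifiers and 67.5% for the two-pore channels. The intervals of the inward rectifiers, the two-pore channels and the voltage-gated alpha subunits lay below these values, and those of the accessory and of the calcium- or sodium-activated group held them. The classes were not tested against each other.

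**Figure D3:**
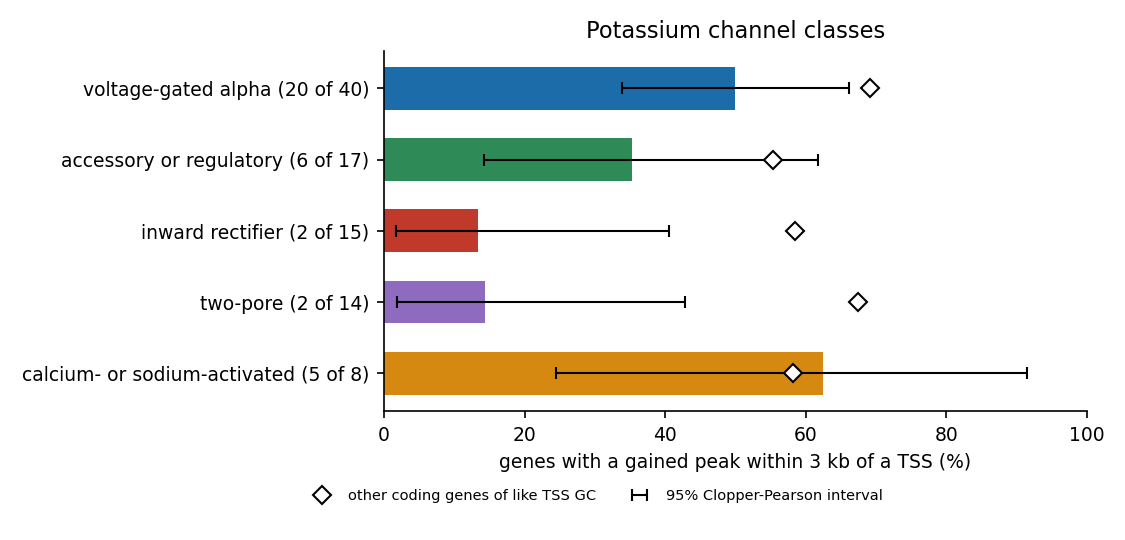
Percent of the members of each channel class with a gained peak within 3 kb of a TSS (bars, horizontal axis from 0) with 95% Clopper-Pearson intervals, and the percent among other coding genes of like TSS GC (diamonds). Inward rectifiers (13.3%) and two-pore channels (14.3%) have the shortest bars, with diamonds at 58.5 and 67.5%.

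Within the voltage-gated alpha subunits, *Kcng* had a gained peak in 3 of 4 genes (73.7% of other coding genes of like GC), *Kcnd* in 2 of 3 (75.8%) and *Kcns* in 2 of 3 (71.7%). The counts were 4 of 8 in *Kcnh* (67.7%), 2 of 4 in *Kcnc* (67.6%), 2 of 5 in *Kcnq* (74%) and 3 of 8 in *Kcna* (66.4%). Neither of the 2 *Kcnv* genes (59.8%) nor *Kcnf1* (64.9%) had one. With so few genes in each, the intervals of these groups held the share of other genes. The groups given here do not cover the whole class, so their counts do not add up to its 20 genes with a peak. Their strongest scores differed widely, from a median of 137 tags in *Kcnd*, whose products carry the transient outward current, to 428.5 tags in the 2 *Kcnq* genes with a peak. Among accessory subunits, *Kcnip* had 3 of 4 (68.2% of other coding genes of like GC), *Kcnab* 2 of 3 (59.3%) and *Kcne* 1 of 5 (47.3%), and none of the 4 *Kcnmb* genes (59.3%), whose products modulate large-conductance calcium-activated channels, had one. The pore of those channels is encoded by *Kcnma1*, whose TSS was covered by a peak of 154 tags.

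The 25 genes taken as cardiac, by the currents they carry in heart muscle, included 13 with a gained peak (52%, interval 31.3 to 72.2%), against 64.6% of other coding genes of like GC. The remaining 69 members included 22 (31.9%), against 63.5%. The median of the strongest score was 328.5 tags in the cardiac genes and 321 tags in the others. Cardiac genes were chosen by hand with the pattern of the whole list known, so the split is a description.

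**Figure D4:**
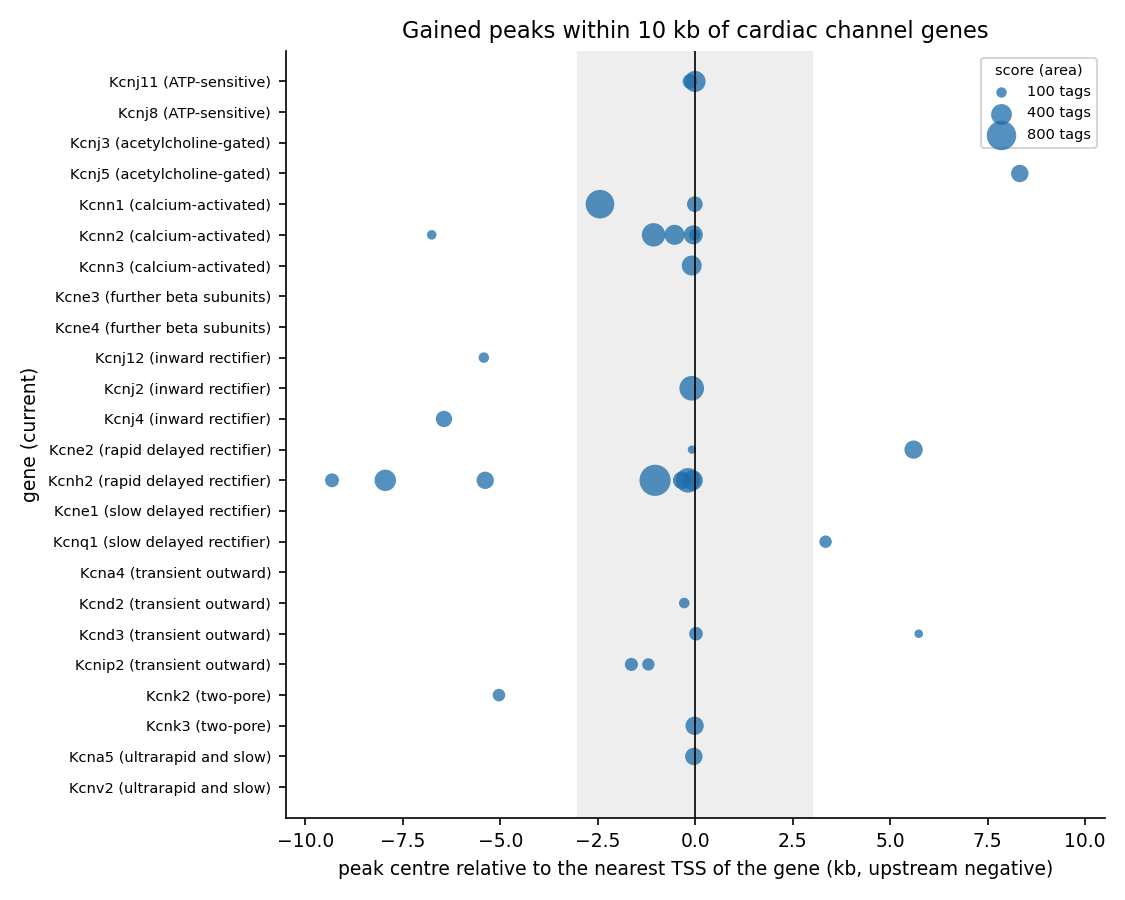
Gained peaks up to 10 kb from the TSSs of the cardiac potassium channel genes (vertical axis, with the current of each; 1 of the 25 is not drawn), at the distance in kb of the peak centre from the nearest TSS of that gene (horizontal axis, upstream negative). Symbol area is the score, grey marks 3 kb to either side, and *Kcnh2* has 7 peaks in view while *Kcnq1* has 1 and *Kcne1* has none.

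The rapid delayed rectifier current, which ends the cardiac action potential, runs through the pore encoded by *Kcnh2*. *Kcnh2* (chr5:24319589-24351604, minus strand) carried 4 gained peaks inside the 3 kb window. The strongest, with 894 tags, lay 954 bp upstream of the first TSS, and a second, with 559 tags, lay 108 bp upstream of it. Another, with 372 tags, covered an internal TSS, and the last, with 283 tags, overlapped a coding exon 271 bp upstream of another internal TSS. The 3 *Kcnh2* sequences printed above hold both the GC box and the CTCF string, and the peak of 283 tags, not printed, holds none of the strings searched. Further peaks of 424 and 277.5 tags lay in introns beyond 3 kb, so that 7 gained peaks lay within 10 kb of a *Kcnh2* TSS, counting 1 of 179 tags upstream of the gene. All 3 of these lay nearer to a TSS of another gene, at 3542 and 979 bp from the antisense transcript Gm15589 for the intronic ones and at 3818 bp from *Nos3* for the upstream one. Among coding genes of like GC, its strongest score was at percentile 82.7. *Kcne2*, an accessory subunit of the same channel, had 1 peak of 63.5 tags, 9 bp upstream of an internal TSS, at percentile 5.48, and none of the strings searched occurred in it. A peak of 309.5 tags 5529 bp from a TSS of *Kcne2* covered a TSS of *Smim11*.

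The slow delayed rectifier current is carried by *Kcnq1* with its beta subunit *Kcne1*, and neither had a gained peak within 3 kb of a TSS. *Kcnq1* (chr7:143106362-143427042, plus strand) has 7 TSSs, and its TSS GC of 58% was that of genes of which 71.2% had a gained peak. Its nearest gained peak lay 3272 bp from a TSS, just outside the window, and had 143.5 tags. Inside the introns of *Kcnq1* were 6 gained peaks in all, in a gene of 320681 bp, or 1.87 per 100 kb. All lay beyond 3 kb of a TSS of the gene, and such peaks numbered 0.605 per 100 kb over all coding genes and 0.49 over members. Among other cardiac genes with such peaks, *Kcnj5* (6.75 per 100 kb), *Kcnh2* (6.25) and *Kcnj12* (2.06) were denser than *Kcnq1*. Sparser were *Kcnk2* (1.54), *Kcnn2* (0.719), *Kcnj3* (0.617), *Kcnd3* (0.451) and *Kcnd2* (0.194). The scores of the 6 peaks in *Kcnq1*, in the order of the gene, were 143.5, 367, 265, 135.5, 346.5 and 95 tags. The peak of 346.5 tags covered the TSS of Kcnq1ot1, the long antisense RNA of the imprinted domain, and the peak of 367 tags lay 56 bp from the TSS of the unclassified transcript Gm38321. Of the 6, those of 367, 265 and 95 tags hold the TEAD string, which occurred in 14.9% of the 13225 gained peaks beyond 3 kb of any coding TSS and in 5.99% of those closer. The share beyond 3 kb was computed for the TEAD string alone, and no difference from it was tested. The peak of 135.5 tags holds the NK2 and the CTCF string, and those of 143.5 and 346.5 tags hold none of the strings searched. *Kcne1* (chr16:92345982-92359468, minus strand) had its nearest gained peak 13458 bp from a TSS, with 399 tags, downstream of the gene.

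**Figure D5:**
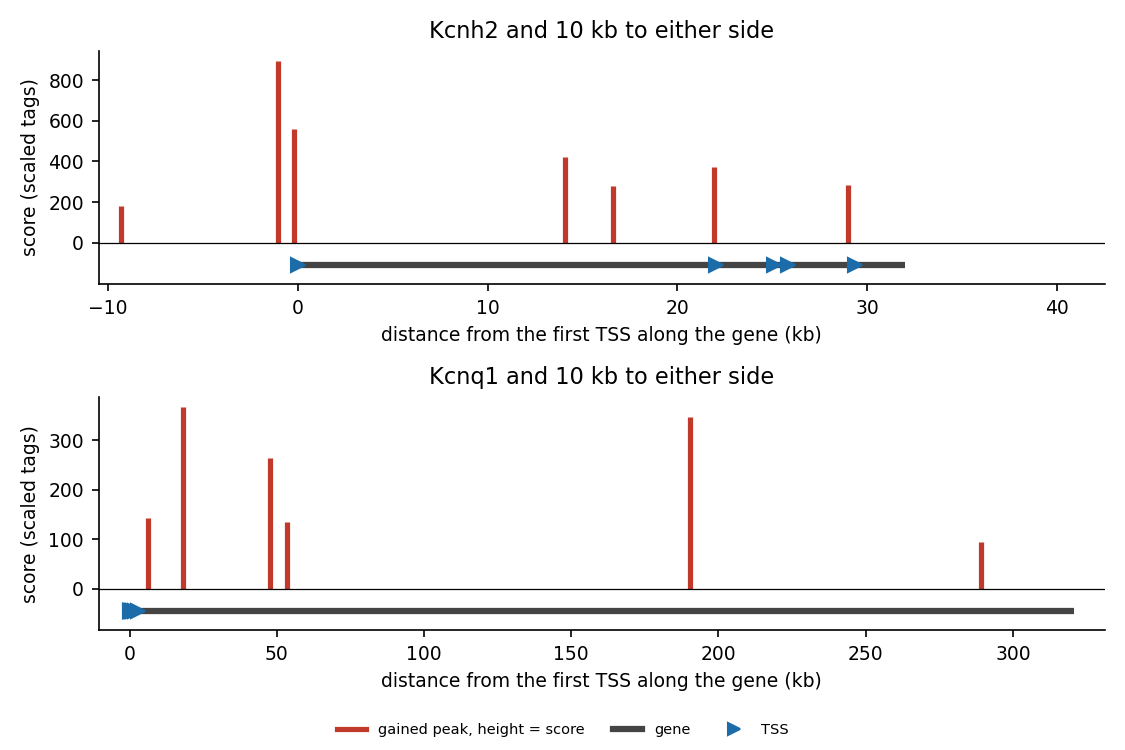
Gained peaks in and around *Kcnh2* (upper) and *Kcnq1* (lower), at the distance in kb from the first TSS of the gene in the direction of transcription (horizontal axis), with the score in scaled tags as height (vertical axis). Grey bars are the genes and triangles their TSSs, and *Kcnh2* has its peaks of 894 and 559 tags at its start while the 6 peaks in *Kcnq1* lie inside the gene.

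The inward rectifier current, which holds the resting potential of the working myocardium, is mainly that of *Kcnj2*. The gene (chr11:111066164-111076821, plus strand) has 1 TSS, and a gained peak of 560 tags ended 14 bp upstream of it, with the GC box on its sequence at 2 places. It stood at percentile 60.3 among genes of like GC. Its relatives *Kcnj12* and *Kcnj4* had no peak within 3 kb. Their nearest gained peaks lay 5347 bp (101 tags) and 6369 bp (245.5 tags) away.

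The acetylcholine-gated current of atrial and pacemaker cells is carried by the products of *Kcnj3* and *Kcnj5*. Neither had a gained peak at a TSS. The nearest peaks were 69544 bp away for *Kcnj3* (76 tags) and 8253 bp away for *Kcnj5* (280 tags), both in introns of these genes. Of the ATP-sensitive channels, which couple metabolism to excitability, *Kcnj11* had a peak of 410 tags over its TSS and another of 202 tags 58 bp upstream of a later TSS, within an annotated 3′ UTR. For *Kcnj8*, the other pore of this kind, the nearest gained peak lay 63348 bp away (462.5 tags).

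The transient outward current, which gives the early repolarisation of the action potential, had a gained peak at 3 of its 4 genes (75%, interval 19.4 to 99.4%), near the 69.5% of other coding genes of like GC, and all of these peaks were weak. *Kcnd2* had 1 of 103 tags 206 bp upstream of its TSS, at percentile 0.758 among genes of like GC. *Kcnd3* had 1 of 171 tags over a TSS, at percentile 3.81. *Kcnip2*, the calcium-binding beta subunit of these channels, had 2 of 158.5 and 141 tags, both in an intron between 1127 and 1562 bp from a TSS, at percentile 4.8. All of these scores were below the median of the list. *Kcna4* had its nearest gained peak 278063 bp away.

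*Kcna5*, which carries the ultrarapid component of the delayed rectifier, had a peak of 280.5 tags over its single TSS. The modulatory subunit gene *Kcnv2* had its nearest gained peak 42106 bp away. Of the background two-pore channels, *Kcnk3*, which responds to acid, had a peak of 308.5 tags over a TSS. *Kcnk2*, which responds to stretch, had none closer than 4958 bp (146 tags), but 3 gained peaks in its introns.

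All 3 small-conductance calcium-activated channel genes of the cardiac list had a gained peak (interval 29.2 to 100%), and 65.7% of other coding genes of like GC did, which lies inside that interval. *Kcnn1* had the peak of 753.5 tags 2367 bp upstream of its first TSS and a peak of 227 tags over an internal TSS. *Kcnn2* had 4 peaks at 2 separate starts, with 371 and 120.5 tags at the first and 506 and 332.5 tags at the other, where the stronger peak is centred 289542 bp along the gene. *Kcnn3* had 1 of 365.5 tags, 14 bp upstream of its TSS. The further beta subunit genes *Kcne3* and *Kcne4* had none, with the nearest gained peaks at 16795 bp (881.5 tags) and 71094 bp (58 tags).

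Of the 59 members without a gained peak at a TSS, 16 had one within 10 kb, 24 between 10 and 50 kb and 19 beyond 50 kb. The median distance was 24121 bp, against 39071.5 bp over the 10702 coding genes without one. Thus 27.1% of these members had a gained peak within 10 kb, against 17.1% of the coding genes without one, and 32.2% had none within 50 kb, against 43.9%. Gained peaks inside the gene but beyond 3 kb of a TSS were found in 29 members (30.9%), against 16.4% of all coding genes. Potassium channel genes are long, with a median of 30830 bp against 17425 bp over all coding genes, and per 100 kb of gene the members had 0.49 such peaks, against 0.605. Counting both kinds, 15 members had a peak at a TSS and inside the gene (16%, against 10.9% of all coding genes), 14 had peaks only inside it (14.9%, against 5.44%) and 45 had neither (47.9%, against 43.3%). These shares are not adjusted for gene length.

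Medians of sequence and structure were compared between members with and without a gained peak at a TSS. The median TSS GC was 59.3% with a peak and 56.4% without, and the CpG ratio, observed over expected, had medians of 0.516 and 0.422. Over all coding genes these medians were 55.7 and 48.7% for GC and 0.556 and 0.252 for the CpG ratio. The same order held for the number of TSSs, 3 against 2 in the family and 5 against 2 in all coding genes. Gene length had medians of 69709 and 20644 bp in the family, and of 25425 and 10749 bp in all coding genes. A gene with more TSSs has more windows in which a peak can be counted. Among other coding genes matched on GC and number of TSSs (1, 2 to 3, or 4 and more), 61% had a gained peak. The family was lower by this measure too (-23.7 percentage points, against -26.5 when matched on GC alone).

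The peaks themselves were GC-rich, with a median of 67.8% over the 48 peaks of the family and 65.8% over the 12520 gained peaks within 3 kb of any coding TSS. Of the 7 strings searched on both strands, GGGCGG occurred in 22 of the 48 peaks (45.8%), against 50.4% of the 12520. AGGGGGC occurred in 7 (14.6%, against 11.6%) and CAGCTG, an E-box, in 4 (8.33%, against 9.19%). GGAATG occurred in 1, at *Kcng1* (2.08%, against 5.99%). For the cardiac GATA factors the string was AGATAA, and it occurred in none of the 48 peaks (2.76% of the 12520). The string of NK2 factors, TNAAGTG, was also in none (3.19% of the 12520), and so was that of MEF2 factors, CTAAAAATA (0.256%). The GC box and the CTCF string are both G-rich and can overlap. None of these shares was tested, and a missing string says only that its letters are not in these windows.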

How the data were processed

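Reads of the 4 ATAC-seq libraries (2 WT and 2 *Smyd1-KO* heart pools) were aligned by the authors to mm10 with BWA-MEM, and peaks were called with HOMER v4.10.3 on the combined libraries of each genotype, keeping those with a 2-fold difference. The deposited signal of each peak (score) is a tag value of the combined libraries in fractional steps, so it is not a raw count, and how the authors scaled it is not given in the sources used here. The treatment of duplicate reads and of the Tn5 offset is not given in the sources used here, and it could change which peaks are listed.

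The members and lists were chosen with earlier results of these data known. Intervals were read as BED, so 1 was added to each start, and all 25745 gained peaks lay inside the GRCm38 chromosomes. Genes and TSSs came from GENCODE M21, and the mitochondrial genes were left out. Distances were taken from the nearer peak edge to any TSS, and a gene counted within 3 kb. GC was computed 500 bp to either side of each TSS, and all other coding genes within 1 percentage point were used for comparison. All 32851 RefSeq promoter entries equalled the GRCm38 sequence at their coordinates. Shares have exact 95% Clopper-Pearson intervals, which cover counting error only, and no significance test was run.

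Genes named with values were the 25 cardiac members, the 10 with the highest score, those with 3 or more peaks, the 3 with the highest and the 3 with the lowest TSS GC, and those whose peak was nearest another gene. Single values of a few genes are not reported here, although the counts include them. The few other genes named were chosen after their values were seen. Alternatives were windows of 1 and 10 kb, a score minimum, other sets of TSSs, nearest-gene assignment, distance from the centre and other ways of matching. The distance step was tested on simulated data. Python 3.11.15, pandas 2.3.3, numpy 2.4.6, scipy 1.17.1 and matplotlib 3.10.9 were used.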

Additional observations from a re-analysis of the deposited data

How the results depend on the processing

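The share of potassium channel genes with a gained peak was 54.3% within 10 kb of a TSS and 24.5% with peaks at or above the median score, against 37.2% as reported. The number of gained peaks near members was 76 within 10 kb, against 48. The cause was not tested, apart from the wider or stricter rule itself. Against other coding genes of like GC the family was lower under each alternative run, with differences from -17.7 percentage points within 10 kb to -33.8 points with the score minimum, and -19.6 points when matched on CpG alone, an alternative chosen after seeing the data. With only the most 5′ TSS of each gene 31 members had a peak (33%), against 59.2% of other coding genes of like GC under the same rule. *Kcnc2*, *Kcne2*, *Kcnip3* and *Kcnma1* were then not counted. Of 126 recomputed scores of named genes 5 moved: *Kcnab3* to 277.5 tags within 1 kb and with the nearest gene alone, *Kcnn1* to 227 within 1 kb, *Kcne2* to 309.5 within 10 kb and *Kcnn2* to 371 at the most 5′ TSS. Genes that lost their peak under a setting are not among the 126 for that setting. The score minimum cannot change a strongest score that remains. No paired analysis was possible because the lists were made from combined libraries, and for the same reason no replicate could be left out. The depth reached per library is not known from the lists, and chromatin open to a like degree in both genotypes was not analysed here, so a gene without a gained peak may be open or closed in both.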

Other observations

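A list of 32 other genes of cardiac excitability (sodium, calcium and pacemaker channels, exchangers, pumps, gap junction proteins and channel partners) was set beside the potassium channels by the same rule. Of these, 23 had a gained peak within 3 kb of a TSS (71.9%), against 63.8% of other coding genes of like GC, and the median of their strongest score was 340 tags. The 9 without one included *Abcc8* and *Abcc9*, the sulfonylurea receptors that pair with the ATP-sensitive pores, the scaffold genes *Ank2* and *Cav3*, the gap junction genes *Gja1* and *Gjc1*, the pacemaker channel gene *Hcn2* and the sodium channel beta subunit gene *Scn2b*. The list is small and was chosen by hand, and the difference between it and the potassium channels was not tested.

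Marker genes of the cell types of the heart were counted in the same way. Beside each count stands the share among other coding genes of like GC. Of 8 cardiomyocyte markers 7 had a gained peak (all but *Nkx2-5*; 59.9%). The counts were 1 of 6 for endothelial markers (49.3%), 1 of 6 for erythroid markers (36.5%), 2 of 4 for epicardial markers (69.8%), 2 of 6 for neural and neural crest markers (46.7%) and 0 of 4 for smooth muscle markers (51.9%). The lists are short, and no difference between them was tested. Whether the mix of cell types plays a part in the peaks at potassium channel genes was not tested.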
